A study of Canis lupus familiaris with 42 samples.

Results

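The genes described here are 8 acute inflammatory mediators: the chemokine CXCL8, the cytokines IL6, LIF and TNF, the interleukin-1 agonists IL1A and IL1B, the interleukin-1 receptor antagonist IL1RN, and the prostaglandin-forming enzyme PTGS2. They were chosen by name, and all 8 were measured, out of 15115 genes with a probe set carrying a single gene symbol. On the array 14 of 42924 probe sets carry one of the 8 symbols alone: 3 each for CXCL8, IL1B and TNF, and 1 each for the others. Each gene is described by its probe set with the highest mean over all 42 arrays, and the other probe sets served as a check. RNA came from spontaneous sarcomas of dogs, taken after and before the first hyperthermia session, a heating of the tumour given alongside radiotherapy. Each of 21 tumours gave 1 array after and 1 array before treatment, hybridised to an Affymetrix canine array, and tumours are numbered 1 to 21. All values are log2 levels, so a difference of 1 is a 2-fold difference.

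The group after treatment had received hyperthermia, and the group before had received none according to the labels. The labels give neither the time between the samples nor whether radiation preceded the second one, and no untreated tumour was sampled again for comparison. They do not say that each tumour came from another dog, and the p-values accordingly cover only how these tumours varied. The design text speaks of more tumours than the 21 analysed here. The dogs' ages and breeds and the sarcoma types are not given. A panel of 10 connective tissue genes, all measured, had mean levels of 11.2 to 12.6 after and 11.2 to 12.5 before treatment. The array medians were 5.20 to 5.31, so the mean of this mesenchymal panel lay above them on every array. This mean does not give the level of each gene. The tumours fell into 2 sets by the signal of the array's poly-A controls, which detect bacterial RNA put into a sample: 9 tumours had a signal of at least 6.23 (called spiked) and 12 of at most 4.36 (called unspiked). No label names these sets. RNA quality was followed by the contrast between 3′ and 5′ probe sets of actin and GAPDH, whose mean change was 0.34 in spiked tumours and -0.05 in unspiked tumours.

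Injured cells release interleukin-1 alpha, and macrophages and neutrophils secrete interleukin-1 beta and tumour necrosis factor. Through NF-kB these signals induce a second wave in stromal, tumour and immune cells, which includes CXCL8, IL6 and PTGS2. The mRNAs of this second wave carry AU-rich elements and are short-lived, so their levels can climb and fall quickly. CXCL8 draws neutrophils out of the blood, IL6 drives fever and the acute-phase response, and PTGS2 (cyclooxygenase-2) makes the precursor of prostaglandins.

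The first question was which of the 8 mediators differed between the samples. CXCL8 was the 1 member that passed the test and was higher after treatment. PTGS2 and IL6 had mean changes of 1.06 and 0.77 that did not pass. IL1A, IL1B, IL1RN, TNF and LIF had mean changes between -0.21 and 0.02 that did not pass. Thus 1 of 8 members was called higher and 0 lower by limma with the tumour as a block, with p-values adjusted by the Benjamini-Hochberg method across 42924 probe sets and called under 0.05. An unadjusted p under 0.05 was found for 2 members, CXCL8 and PTGS2. Among all 15115 named genes 4.02% were called higher and 3.13% lower (7.15% either way), and among all probe sets 2.97% and 2.99% (5.96% either way). With so few members, 1 call is no more than a description of CXCL8 itself.

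**Figure D1:**
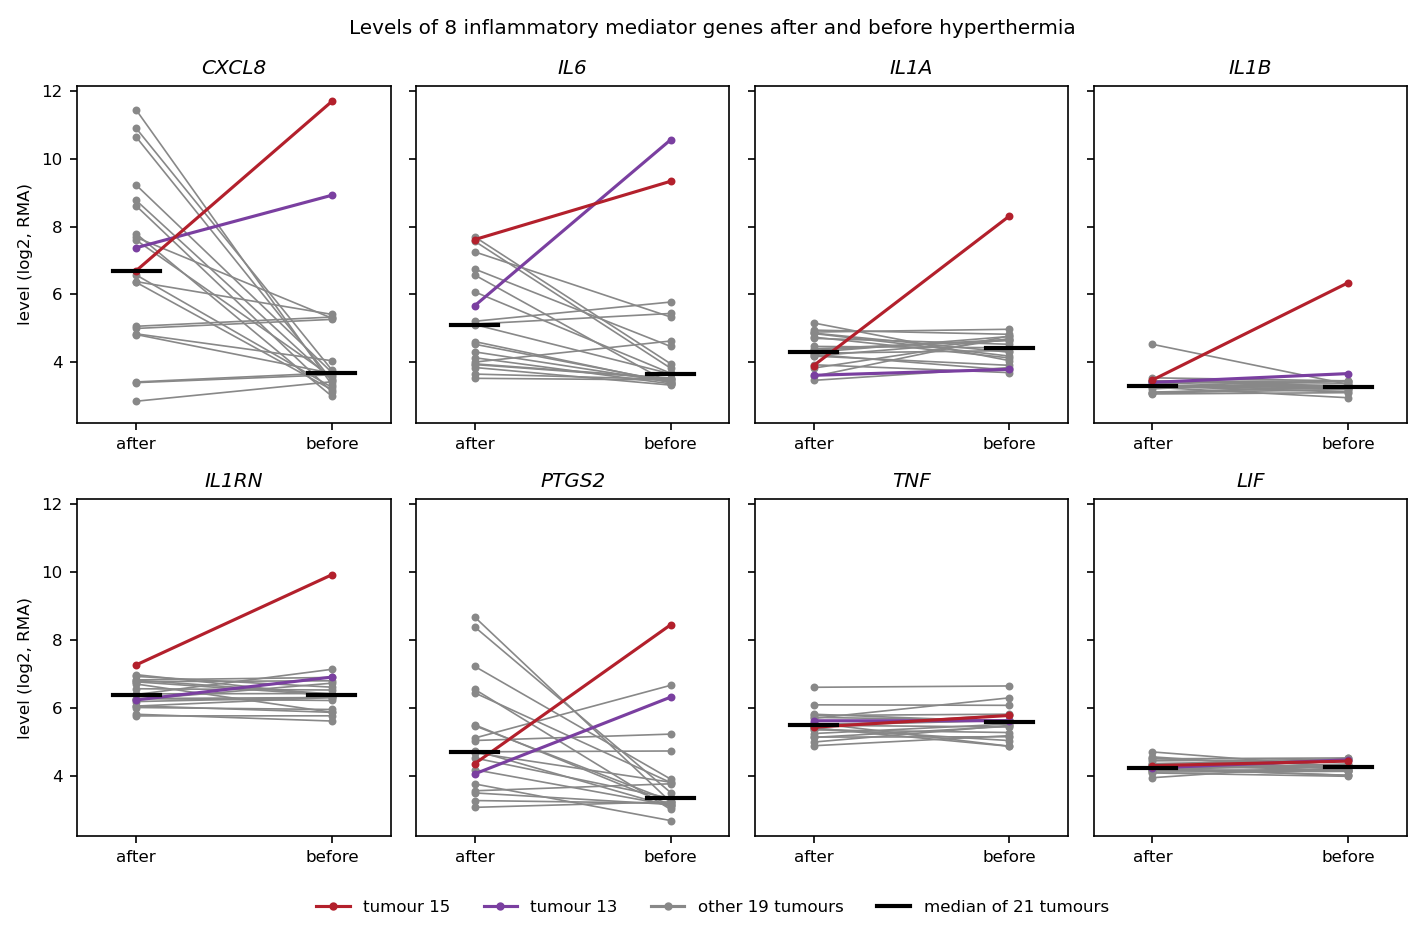
Log2 level of the 8 genes in each of 21 tumours after (left) and before (right) hyperthermia, with lines joining the samples of a tumour and black bars at the medians. CXCL8, IL6 and PTGS2 spread over a wide range after treatment, while tumours 15 (red) and 13 (purple) had their high levels before it.

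CXCL8 is the main neutrophil-attracting chemokine of dogs and humans and is absent from the mouse genome. Its level ran from 2.85 to 11.4 with a median of 6.70 in tumours after treatment, against 2.996 to 11.7 with a median of 3.67 before treatment. The lowest level after treatment was in tumour 6 and the highest in tumour 7, whereas the highest level before treatment was in tumour 15. Before treatment all but 2 tumours lay between 2.996 and 5.41: tumour 15 had 11.7 and tumour 13 had 8.93, and the next was tumour 17 with 5.41. After treatment 14 of 21 tumours lay above that third-highest pre-treatment level, so the groups overlapped mainly through tumours 13 and 15 at the top and the tumours that stayed low. The mean change was 2.44 ± 0.67 (SE, n = 21; limma adjusted p = 0.0303), a 5.42-fold higher level with a 95% interval of 2.08 to 14.1.

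The CXCL8 change was far from uniform. It was positive in 14 tumours and negative in 7, and 12 tumours were up at least 2-fold, 2 were down at least 2-fold and 7 moved by less than 2-fold. The CXCL8 signal lay below the median of its own array on 23 of 42 arrays. In tumours 6, 8 and 9 both levels lay between 2.85 and 3.69, so a small change there can mean little signal in either sample. Tumour 7 had the largest increase with 8.11, followed by tumour 16 with 7.18 and tumour 10 with 7.13. The largest decreases were -4.998 in tumour 15 and -1.55 in tumour 13, the tumours with the highest levels before treatment, and the other 5 negative values lay between -0.58 and -0.23. The SD of the change over tumours was 3.38, which ranked 2 among 42924 probe sets, and the other CXCL8 probe sets ranked 1 and 4. Few transcripts on this array therefore varied as much between tumours in their change.

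The call on CXCL8 stood close to its threshold. The other probe sets of the gene gave mean changes of 1.89 (16 tumours higher, limma adjusted p = 0.0614) and 1.98 (17 tumours higher, adjusted p = 0.0887), so neither passed. Leaving out tumour 2, 3, 7, 10, 12, 16, 18, 20 or 21 in turn gave changes between 2.15 and 2.40 with limma adjusted p between 0.0503 and 0.0592, and the call was lost in these 9 fits. The change was 3.34 in spiked tumours (6 of 9 higher, limma adjusted p = 0.0411) and 1.76 in unspiked tumours (8 of 12 higher, adjusted p = 0.475). The difference between these sets did not pass (limma adjusted p = 0.852). Adjusting for the actin and GAPDH contrast gave a CXCL8 change of 2.03 (limma adjusted p = 0.0768).

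Because whole tumour pieces were measured, fewer cells of a type and less RNA per cell cannot be told apart. Markers of neutrophils, and of macrophages and monocytes, were set against the members tumour by tumour. Of 18 neutrophil markers 13 were measured, and 3 rose: the calprotectin subunit S100A9 (1.08 ± 0.32), the iron-binding lipocalin LCN2 (0.82 ± 0.22) and the receptor TREM1 (0.61 ± 0.13; SE, n = 21; limma adjusted p = 0.0454, 0.0291 and 0.00774). None of the 13 fell, while 4.02% of all named genes were called higher and 3.13% lower. The mean level of the neutrophil list ran from 4.60 to 6.68 after and 4.50 to 7.02 before treatment. The granule genes MPO (-0.01), ELANE (-0.06), CAMP (-0.04), MMP8 (0.05) and LTF (0.36; 16 of 21 tumours higher, limma adjusted p = 0.158) did not pass. Neither did the calprotectin subunit S100A8 (0.67; 17 of 21 higher, adjusted p = 0.0813), CSF3R (0.09), MMP9 (0.09), FPR2 (0.13) or PADI4 (0.09). Leaving out 1 tumour ended the call on S100A9 in 15 of 21 fits (changes there from 0.96 to 1.11) and that on LCN2 in 6 fits (without tumours 2, 3, 10, 12, 16 or 21; changes there from 0.72 to 0.78), and that on TREM1 in 0. The call on S100A9 was also lost in spiked and in unspiked tumours alone and after adjustment for the actin and GAPDH contrast (0.85), and that on LCN2 in the same 3 settings, with a median LCN2 change of 0.38. Of 11 T cell markers measured, 6 were called lower and 0 higher, against 3.13% and 4.02% of all named genes. The 6 were CD3D, CD3E, CD3G, LCK, GZMA and GZMB. CD8A (-0.12), CD2 (-0.17), CD5 (-0.06), PRF1 (-0.08) and CD4 (0.14; 14 of 21 tumours higher) did not pass. The mean level of that list ran from 4.31 to 5.51 after and 4.67 to 6.48 before treatment, and its part in the changes of the members was not tested.

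Over the 21 tumours the change of CXCL8 and the mean change of the neutrophil list had a Pearson r of 0.853 and a Spearman rho of 0.882. Both had an adjusted p of 0.00024 over 24 relations, with a permutation p of 1e-05, the smallest that 100000 permutations can give. Without the 2 tumours farthest from the median r was 0.870, within spiked tumours it was 0.837 and within unspiked tumours 0.885. Of the 13 neutrophil genes 6 had an r above 0.5 with CXCL8 and 10 an r above 0. The 6 were TREM1 (0.853), S100A9 (0.720), LCN2 (0.666), S100A8 (0.652), CSF3R (0.557) and PADI4 (0.533). Of the others, MMP8 (0.475), MMP9 (0.456), FPR2 (0.305) and MPO (0.291) lay between, and CAMP (-0.165), ELANE (-0.182) and LTF (-0.337) lay below 0. The neutrophil list also went with IL1RN (r = 0.731 over 20 tumours without tumour 15, permutation adjusted p = 0.0018), PTGS2 (r = 0.584, adjusted p = 0.0341) and IL6 (r = 0.572, adjusted p = 0.0341). Without tumours 13 and 15 the r of PTGS2 was 0.360 and that of IL6 0.279. Of 16 macrophage and monocyte markers, all measured, 4 were higher and 1 lower, against 4.02% and 3.13% of all named genes. Their mean change had an r of 0.113 with that of CXCL8. Genes of this list moved in opposite directions, such as MARCO (1.86) and CSF1R (-0.49), so the mean can hide relations of single genes. The 3′ to 5′ contrast had an r of 0.417 with CXCL8 (permutation adjusted p = 0.295). The part of neutrophil number in the CXCL8 change was not tested.

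Of the other genes that attract or expand neutrophils, 4 of 13 listed symbols were measured by a probe set of their own, and none passed. One listed symbol not measured, CXCL7, is an older name of PPBP. The platelet chemokine PPBP changed by 0.01, the granulocyte growth factor CSF3 by -0.01, the granulocyte-macrophage growth factor CSF2 by -0.01, and the receptor CSF3R by 0.09. The CXCL8 receptors CXCR1 and CXCR2 share a probe set and are not given here.

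IL6 signals through its own receptor and the shared subunit gp130, the product of IL6ST. Its level ran from 3.53 to 7.70 with a median of 5.11 after treatment, against 3.33 to 10.6 with a median of 3.66 before treatment. The highest level after treatment was in tumour 10, and the levels before treatment were topped by tumour 13 with 10.6 and tumour 15 with 9.34, which no tumour reached afterwards. The next highest before treatment was tumour 5 with 5.78, and 7 tumours lay above it after treatment. The mean change was 0.77 ± 0.38 (SE, n = 21; 1.71-fold; 95% interval -0.02 to 1.56; limma adjusted p = 0.274), with 16 tumours higher and 5 lower. The change reached 3.74 in tumours 1 and 10, and was -4.89 in tumour 13. IL6 was up at least 2-fold in 9 tumours and down at least 2-fold in 2, and its SD of change (1.94) ranked 19 of 42924. Its signal lay below the median of its own array on 29 of 42 arrays. IL6 passed when tumour 13 was left out (1.05, limma adjusted p = 0.0345), and in no other fit that left out 1 tumour.

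PTGS2 is the inducible cyclooxygenase and the target of anti-inflammatory drugs. Its level ran from 3.06 to 8.67 with a median of 4.70 after treatment, against 2.67 to 8.45 with a median of 3.33 before treatment. Tumours 1 and 10 were highest after treatment (8.67 and 8.38). Before it the highest were tumour 15 (8.45), tumour 4 (6.66) and tumour 13 (6.31), and the groups overlapped over nearly their whole range. The mean change was 1.06 ± 0.45 (95% interval 0.13 to 1.98), a 2.08-fold difference whose limma adjusted p of 0.182 did not pass although the unadjusted p was 0.0270. PTGS2 was higher in 14 tumours, at least 2-fold in 11 of them, and down at least 2-fold in 3 tumours. Its signal lay below the median of its own array on 32 of 42 arrays. The extremes were 5.45 in tumour 1 and -4.10 in tumour 15, and the SD of change (2.27) ranked 10 of 42924. Leaving out tumour 15 gave 1.31 (limma adjusted p = 0.0459), and no other single omission brought PTGS2 past the threshold. The change was 1.82 in spiked tumours (8 of 9 higher) and 0.49 in unspiked tumours (6 of 12 higher), a difference that did not pass (limma adjusted p = 0.796).

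**Figure D2:**
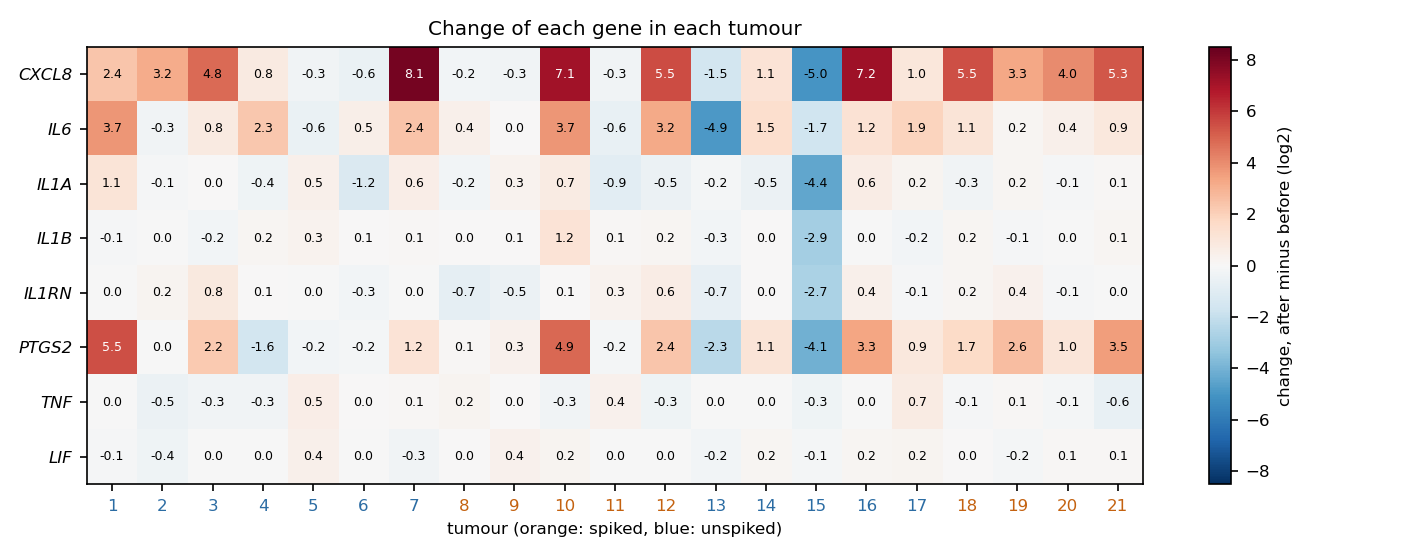
Change (after minus before, log2) of each gene (rows) in each of 21 tumours (columns), printed in each cell and coloured from blue (lower after) to red (higher after). Large changes sit in the CXCL8, IL6 and PTGS2 rows, and tumour 15 is the column in which CXCL8, IL6, PTGS2 and the interleukin-1 genes were all lower by over 2-fold.

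The same tumours tended to move for CXCL8, IL6 and PTGS2. All 3 were up at least 2-fold in 7 tumours (1, 7, 10, 12, 14, 16 and 18), and CXCL8 and PTGS2 were both up at least 2-fold in 11. None of the 3 was up 2-fold in 7 other tumours (5, 6, 8, 9, 11, 13 and 15). The sign was positive for all 3 in 12 tumours and negative for all 3 in 4 tumours (5, 11, 13 and 15). In tumours 5 and 11 the largest of these decreases was -0.62, for IL6 in tumour 11, so of these 4 tumours only 13 and 15 had decreases of over 2-fold.

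Across tumours the changes of CXCL8 and PTGS2 had an r of 0.760 (rho = 0.812; permutation adjusted p = 0.00196 and 0.00112 over 28 pairs of members). Those of IL6 and PTGS2 had an r of 0.701 (rho = 0.678; adjusted p = 0.00742 and 0.0121), and those of CXCL8 and IL6 an r of 0.604 (rho = 0.665; adjusted p = 0.0320 and 0.0121). Without the 2 tumours farthest from the median of the first gene named, r was 0.748, 0.604 and 0.531 for these pairs. Within spiked tumours r was 0.865, 0.739 and 0.771, and within unspiked tumours 0.699, 0.689 and 0.535. Without tumours 13 and 15 it was 0.622, 0.582 and 0.469, and no pair passed after adjustment within spiked tumours, within unspiked tumours or without tumours 13 and 15. IL1A and PTGS2 also passed over the 20 tumours without tumour 15 (r = 0.595, permutation adjusted p = 0.0423), but not by rank (rho = 0.510, adjusted p = 0.138), and r was 0.459 without the 2 farthest tumours. Single omissions left this pair past the threshold in 12 of 21 fits (r from 0.471 to 0.654), and it was lost without tumours 1, 4, 8, 10, 11, 15, 16, 19 or 20. Tumour 15 was already left out of this pair, so in that fit only the adjustment over the 28 pairs differed. Tumour 15, and for IL1B also tumour 10, stood apart in the interleukin-1 changes and was left out of pairs with those genes. The CXCL8 and IL6 pair no longer passed without tumour 10 (r = 0.552 to 0.647 over all single omissions) or without tumour 15, while the other pairs of these 3 genes passed in all 21 such fits. None of the 24 other pairs passed.

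**Figure D3:**
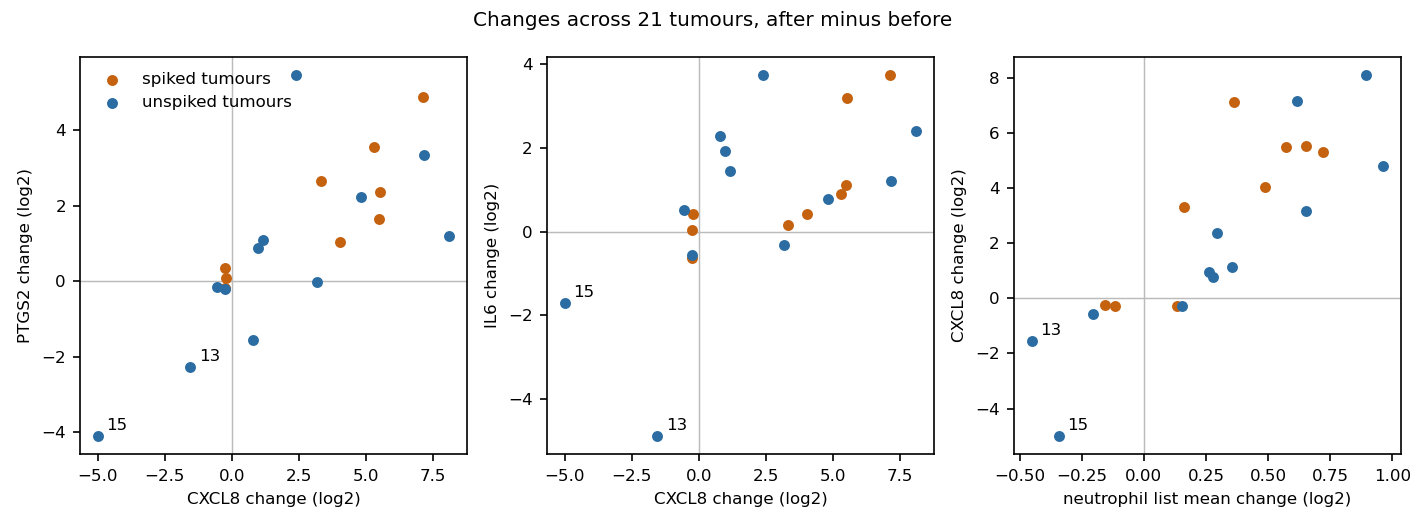
Change (after minus before, log2) per tumour for PTGS2 against CXCL8, IL6 against CXCL8, and CXCL8 against the mean change of 13 neutrophil markers, in 9 spiked (orange) and 12 unspiked (blue) tumours. The points run from tumours 13 and 15 at the lower left to the tumours with the largest increases at the upper right, with both sets of tumours along the same trend.

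IL1A and IL1B encode the agonists that activate the interleukin-1 receptor, and IL1RN encodes the antagonist that occupies it without signalling. IL1A ran from 3.47 to 5.16 with a median of 4.297 after treatment, against 3.696 to 8.31 with a median of 4.43 before treatment. IL1B ran from 3.07 to 4.53 with a median of 3.31 after treatment, against 2.96 to 6.35 with a median of 3.27 before treatment. IL1RN ran from 5.76 to 7.26 with a median of 6.39 after treatment, against 5.61 to 9.92 with a median of 6.37 before treatment. In each of these genes tumour 15 held the highest level before treatment, and the rest of the groups overlapped almost entirely. The second-highest pre-treatment level was 4.97 for IL1A, 3.67 for IL1B and 7.13 for IL1RN.

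The mean changes were -0.21 ± 0.22 for IL1A, -0.07 ± 0.14 for IL1B and -0.09 ± 0.14 for IL1RN (SE, n = 21; limma adjusted p = 0.676, 0.867 and 0.793). Their 95% intervals in fold were 0.631 to 1.18, 0.781 to 1.17 and 0.766 to 1.15. A mean 2-fold change of array signal in either direction lay outside all 3 intervals. For IL1A and IL1B that signal was low, as given below. In tumour 15 alone the changes were -4.41, -2.87 and -2.66. Tumour 10 had the highest IL1B level after treatment (4.53), with a change of 1.18. No difference in change between agonist and antagonist passed: IL1B minus IL1RN was 0.03 ± 0.47 (SD, n = 21; above 0 in 10 tumours; 95% interval -0.19 to 0.24; sign-flip permutation test, p = 0.784), and IL1A minus IL1RN was -0.12 ± 0.75 (above 0 in 11 tumours; 95% interval -0.46 to 0.22; p = 0.478). The signals of IL1A and IL1B lay below the median of their own array on 41 of 42 arrays each, and these files hold no detection calls. The other IL1B probe sets changed by -0.05 and 0.01 and did not pass. The second of these lay below its array's median on 42 of 42 arrays. In tumour 15 it changed by -0.14, against -2.95 by the first, and in tumour 10 by -0.10, against 1.34. The second probe set is thus a weak check on IL1B.

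Epidermal transcripts had their highest mean level in tumour 15. KRT1, a keratin of upper epidermal layers, was at 13.7 after and 13.5 before treatment in tumour 15, against medians of 4.85 after and 4.82 before in the 19 tumours other than 13 and 15, whose highest values were 8.85 and 5.54. KRT10 was at 12.6 after and 12.1 before, against medians of 3.42 after and 3.39 before in those 19 tumours. The adhesion gene DSG1 was at 7.05 after and 8.45 before, and the epithelial 14-3-3 gene SFN at 10.2 after and 11.4 before. The mean of the 6 keratinocyte markers measured (of 9 listed) was 8.99 after and 9.78 before in tumour 15, while in the other 20 tumours it ran from 3.86 to 5.52 after and 3.85 to 5.34 before. The basal-layer gene TP63 was at 3.75 after and 4.22 before in tumour 15. DSG3, an adhesion gene of lower layers, was at 6.66 after and 9.01 before in tumour 15, but reached 7.83 after and 8.52 before among the 19 tumours other than 13 and 15. The part of epidermal tissue in the decreases of tumour 15 was not tested. Other tumours held epidermal transcripts too: in tumour 13 KRT1 was at 4.91 after and 8.62 before and KRT10 at 3.73 after and 6.59 before, and in tumour 2 the mean of the 6 markers was 5.52 after and 3.98 before.

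TNF, the macrophage cytokine at the head of the NF-kB response, ran from 4.88 to 6.60 with a median of 5.48 after treatment, against 4.86 to 6.64 with a median of 5.59 before treatment. LIF, an IL-6 family cytokine known for cachexia and stem cell maintenance, ran from 3.94 to 4.697 with a median of 4.22 after treatment, against 3.98 to 4.52 with a median of 4.26 before treatment. The groups overlapped fully in both genes, and no single tumour changed by 2-fold or more in either. The mean change was -0.05 ± 0.07 for TNF (8 of 21 tumours higher; limma adjusted p = 0.774) and 0.02 ± 0.05 for LIF (10 of 21 higher; adjusted p = 0.898). In fold the 95% intervals were 0.877 to 1.07 for TNF and 0.945 to 1.09 for LIF. LIF lay below its array's median on 42 of 42 arrays. The other TNF probe sets changed by -0.03 and -0.07 and did not pass. Their signals lay below the array's median on 35 and 42 of 42 arrays, against 9 for the probe set used here. The probe sets differed in single tumours: in tumour 17 the one used here gave 0.68, and the others -0.27 and -0.18. They are thus a weak check on TNF. Of the 105 single-tumour changes of IL1A, IL1B, IL1RN, TNF and LIF, 2 were up and 4 were down by at least 2-fold.

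Another question was whether the tumours became more alike or less alike. The SD between tumours was 2.47 after and 2.13 before treatment for CXCL8, 1.44 and 1.96 for IL6, and 1.58 and 1.47 for PTGS2. It was 0.49 and 0.95 for IL1A, 0.30 and 0.68 for IL1B, and 0.41 and 0.87 for IL1RN. A difference in spread passed for none of the 8 genes by the Pitman-Morgan correlation with swaps within tumours (permutation p from 0.197 to 0.834, unadjusted). With the t distribution and adjustment over all 42924 probe sets, an alternative added after the data were seen, IL1B (adjusted p = 0.0394) and IL1RN (0.0165) had a smaller spread after treatment, against 1.76% of all probe sets called in either direction. The direction for IL1B turned between the sets of tumours: its SD was 0.41 after and 0.06 before in spiked tumours (exact permutation p = 0.0352, unadjusted), and 0.15 after and 0.90 before in unspiked tumours (permutation p = 0.0312, unadjusted). Each wide IL1B spread leaned on a single tumour. Spiked tumour 10 had 4.53 after treatment, where the second-highest level of all tumours was 3.54. Unspiked tumour 15 had 6.35 before treatment, where the second-highest was 3.67. CXCL8 had an SD of 2.65 after and 0.62 before in spiked tumours (exact permutation p = 0.00391), and of 2.43 after and 2.66 before in unspiked tumours (permutation p = 0.872). Without tumours 13 and 15 the SD was 2.60 after and 0.81 before for CXCL8 (permutation p = 0.00094) and 1.40 and 0.79 for IL6 (p = 0.0317), while that of IL1RN was 0.38 and 0.40 and that of IL1B 0.31 and 0.13 (permutation p = 0.276). These tumours were singled out for their large changes, so the values without them are a description.

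The receptors and downstream genes of the 8 mediators came next, in 6 lists of 107 gene symbols. Of these 88 were measured, 5 were higher and 5 lower, against 4.02% higher and 3.13% lower (7.15% either way) over all named genes. In the interleukin-1 list 21 of 27 genes were measured, 1 was higher and 1 lower, with a median change of 0.04 against 0.0069 over all named genes. GSDMD, which forms the pore that lets mature interleukin-1 beta out of cells, rose by 0.25 ± 0.06 (limma adjusted p = 0.00948), and IRAK3, an inhibitor of interleukin-1 and Toll-like receptor signalling, fell by 0.44 on the log2 scale (SE 0.10; adjusted p = 0.0096; 17 of 21 tumours lower). The signalling receptor IL1R1 changed by -0.03, the decoy receptor IL1R2 by 0.11 and the accessory chain IL1RAP by 0.06, and none passed.

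In the IL-6 family list 18 of 20 genes were measured, with a median change of -0.0045. Of these 1 was higher and 1 lower, against 4.02% and 3.13% of all named genes. OSMR, the oncostatin M receptor, rose by 0.61 ± 0.17 (limma adjusted p = 0.0368; 16 of 21 tumours higher), and IL11RA, the interleukin-11 receptor, fell by 0.59 on the log2 scale (SE 0.09; adjusted p = 0.00102; 19 of 21 lower). The receptors of the members themselves did not pass: IL6R changed by 0.11, the shared subunit IL6ST by 0.05 and the LIF receptor LIFR by 0.27 (limma adjusted p = 0.138; 0.33 and adjusted p = 0.0461 without tumour 13). Single omissions ended the call on OSMR in 10 of 21 fits (without tumour 1, 2, 3, 7, 10, 16, 17, 18, 20 or 21), with changes there from 0.53 to 0.63.

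Prostaglandin genes moved in both directions. All 21 listed were measured, 2 rose and 3 fell, against 4.02% higher and 3.13% lower over all named genes. The median change of the list was -0.01. PTGS1, the constitutive cyclooxygenase, fell by 0.46 on the log2 scale (SE 0.12; limma adjusted p = 0.0198; 17 of 21 tumours lower), in contrast to the mean of 1.06 for PTGS2, although the difference between the 2 enzymes was not tested. The prostaglandin D synthase PTGDS fell by 0.47 (SE 0.12; adjusted p = 0.0206) and the prostaglandin E receptor PTGER3 by 0.33 (SE 0.10; adjusted p = 0.0453). The prostaglandin E synthase PTGES2 rose by 0.27 ± 0.05 (limma adjusted p = 0.00309; 19 of 21 higher) and the thromboxane synthase TBXAS1 by 0.47 ± 0.12 (adjusted p = 0.0228). PTGES, the inducible prostaglandin E synthase coupled to PTGS2, changed by 0.38 (17 of 21 higher; adjusted p = 0.1997), and passed narrowly without tumour 13 (0.48, adjusted p = 0.04997). The degrading enzyme HPGD changed by -0.20 (adjusted p = 0.127). Single omissions ended the call on PTGER3 in 15 of 21 fits, with changes there from -0.34 to -0.26, and it held without tumours 5, 6, 8, 12, 15 or 18.

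In the TNF list 14 of 15 genes were measured and none passed, with a median change of -0.03. The receptors TNFRSF1A and TNFRSF1B changed by 0.19 and -0.03. Of 11 genes that control AU-rich mRNAs 10 were measured, and 1 passed: MAPKAPK2, a kinase that stabilises these messages, rose by 0.34 ± 0.08 (limma adjusted p = 0.0164; 17 of 21 tumours higher). The median change of that list was -0.01. Of all named genes 7.15% passed in either direction.

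**Figure D4:**
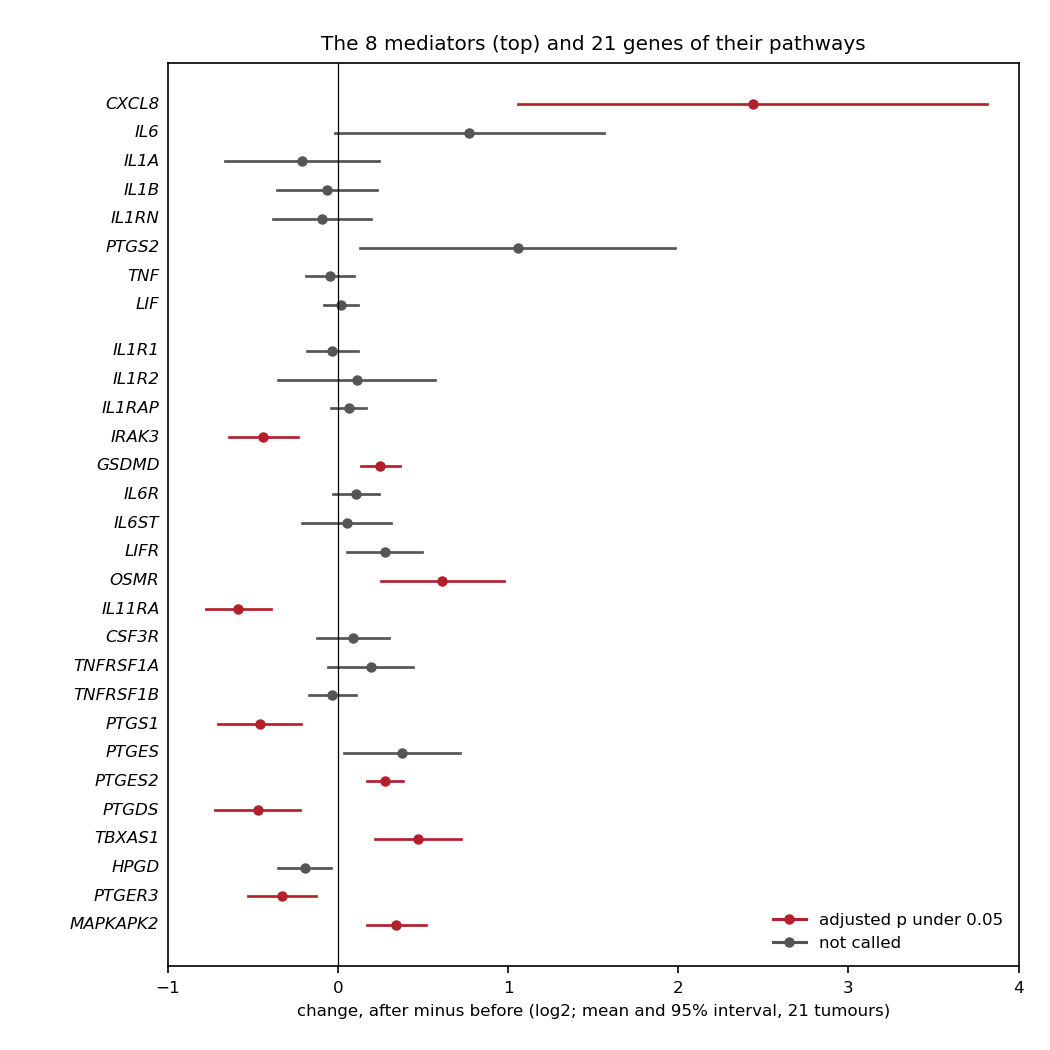
Mean change (after minus before, log2) with its 95% interval over 21 tumours for the 8 mediators and 21 genes of their pathways, in red where the limma adjusted p was under 0.05. The interval of CXCL8, from 1.06 to 3.82, is the widest shown, and the called pathway genes lie between -0.59 and 0.61.

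Finally, genes were ranked by the Pearson r of their change with that of a member over the 21 tumours, among 6500 genes whose change had an SD of at least 0.3. These values are a description, since the genes share arrays and tumours. The 6 genes most like CXCL8 were the survival gene BCL2A1 (r = 0.890), the interleukin-18 inhibitor IL18BP (0.886), the granule proteoglycan SRGN (0.870), the glucose transporter SLC2A3 (0.870), the kinase SGK1 (0.862) and the neutrophil receptor TREM1 (0.853). Without tumours 13 and 15 their r lay between 0.824 and 0.867. Of these 6 genes BCL2A1 rose by 1.27, SRGN by 0.88, SGK1 by 0.83 and TREM1 by 0.61 (limma adjusted p = 0.00925, 0.0302, 0.0359 and 0.00774), while IL18BP (0.75) and SLC2A3 (0.64) did not pass. PTGS2 ranked 42 and IL6 252 in this order, so many other genes followed CXCL8 more closely than the other mediators did.

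Most like PTGS2 were the kinase RIPK2 (r = 0.8798), the transcription factor NFIL3 (0.873), the NF-kB regulator NFKBIZ (0.838), the superoxide dismutase SOD2 (0.833), the peptidase LVRN (0.828) and the death receptor FAS (0.807), with 0.703 to 0.858 without tumours 13 and 15. Most like IL6 were the nuclear receptor NR4A2 (r = 0.817), the AU-rich decay factor ZFP36 (0.804), the chemokine PPBP (0.787), TULP2 (0.783), the adhesion molecule ICAM1 (0.778) and the glycolipid enzyme UGCG (0.772). Without tumours 13 and 15 the r of these 6 with IL6 dropped to between 0.403 and 0.668, so the order around IL6 leans more on those tumours than the order around CXCL8 or PTGS2.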

How the data were processed

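The deposited log2 levels were made with RMA, and Affymetrix Expression Console is named too, per the submitters' processing notes (version not given in the sources used here). They ran from 2.13 to 14.6 with array medians of 5.20 to 5.31. RMA corrects background, gives arrays a common distribution and condenses each probe set to 1 value. Per the labels' protocols, tissue went into RNAlater and RNA was extracted with a Qiagen kit. Of 43035 rows, 111 control probe sets were left out, and probe sets were named from the platform annotation where it gave a single symbol. Gene symbols of all 8 members matched a current RefSeq gene table and changed for 0.

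Groups came from the treatment label, and pairs from the tumour code that opens each title. After removal of the group means every array after treatment was compared with all arrays before treatment. Each correlated best with its partner (21 of 21 pairs, lowest r 0.438). The tumour was the block in the limma fit (limma 3.58.1, R 4.3.3), which was two-sided, adjusted by Benjamini-Hochberg over 42924 probe sets, and checked on simulated data. Correlations used 100000 permutations, and mclust 6.1.1 looked for tumours apart. Spiked and unspiked tumours were divided at the middle of the largest gap in the poly-A signal (5.29), inferred from the data. Other steps ran in Python 3.11.15 with SciPy 1.17.1, NumPy 2.4.6 and pandas 2.3.3, and plots in Matplotlib 3.10.9. Precision is limited by how many arrays there are.

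The members and lists were chosen with earlier results of these data known. Pathway genes named are those past the threshold (at most 3 a direction with the smallest p) and a set of receptors and enzymes, the 6 genes most like CXCL8, IL6, PTGS2 and IL1B in their change, and the tumours with the lowest and highest change. Neutrophil, keratinocyte, chemokine and interleukin-1 locus genes given as examples were named after their values were seen. Alternatives were the fit with no block or a random block, trend and robust shrinkage, renewed quantile normalisation, median centring, array weights, adjustment for the actin and GAPDH contrast, a filter at the median level, other probe sets, the Wilcoxon signed-rank test, spiked or unspiked tumours alone, and leaving out each tumour or tumours 13 and 15. No sequences are printed.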

Additional observations from a re-analysis of the deposited data

How the results depend on the processing

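The call on CXCL8 held with a random block, array weights, renewed quantile normalisation, median centring, the filter at the median level, spiked tumours alone and without tumours 13 and 15 (adjusted p from 0.00282 to 0.0411). With no replicate block in place of the pairing CXCL8 was at 2.44 (adjusted p = 0.274), with trend and robust shrinkage at 2.44 (0.0539), with the contrast covariate at 2.03, as the mean of its probe sets at 2.10 (0.0533), by its other probe sets at 1.89 and 1.98, in unspiked tumours at 1.76, and by Wilcoxon at 2.39 (0.0855). Single omissions gave 2.15 to 2.81. Without tumours 13 and 15 IL6 (1.20, limma adjusted p = 0.00934) and PTGS2 (1.502, 0.0151) passed too. Tumours 13 and 15 were singled out for their large changes in these genes, so all fits without them, that of CXCL8 included, are a description. Single omissions gave 0.62 to 1.05 for IL6 and 0.84 to 1.31 for PTGS2. The sign turned for IL1A without tumours 13 and 15 (0.0078). For IL1B it turned with array weights (0.0339), in spiked tumours (0.19), without tumours 13 and 15 (0.0929) and by Wilcoxon (0.0388). It also turned by the IL1B probe set that lay below its array's median on 42 of 42 arrays (0.0139). For IL1RN it turned in spiked tumours (0.0219) and without tumours 13 and 15 (0.0716). For LIF it turned in unspiked tumours (-0.0236) and by Wilcoxon (-0.0207), and for IL1B minus IL1RN in unspiked tumours (-0.0754). Single omissions gave -0.28 to -0.0013 for IL1A, -0.127 to 0.0752 for IL1B, -0.14 to 0.0343 for IL1RN, -0.0034 to 0.0382 for LIF and -0.0257 to 0.0827 for IL1B minus IL1RN, and no call changed in these. The count of members called higher was 0 with no replicate block, trend and robust shrinkage, the covariate, unspiked tumours and Wilcoxon, 3 without tumours 13 and 15, and 0 to 2 with single omissions. Of the member pairs 10 passed with all 21 tumours in every pair, 1 without the 2 farthest tumours, 0 in spiked or unspiked tumours and without tumours 13 and 15, and 2 to 5 with single omissions. Of 24 marker relations 4 passed, against 0 in spiked tumours, 2 in unspiked tumours and without tumours 13 and 15, and 2 to 5 with single omissions. The spread differed for 0 members, against 2 in spiked tumours, 1 in unspiked tumours and 2 without tumours 13 and 15 or by the t distribution. Of the 10 pathway genes called, 0 were called with no replicate block or in unspiked tumours, 5 in spiked tumours, 6 with a random block, 7 with the covariate or by Wilcoxon, and 8 to 10 with single omissions. Receptor changes near 0 turned sign for IL1R1 in unspiked tumours (0.0292) and without tumours 13 and 15 (0.0261), IL1R2 in spiked tumours (-0.0224) and by Wilcoxon (-0.0344), IL1RAP in spiked tumours (-0.0111), IL6ST with array weights (-0.0406) and in spiked tumours (-0.18), TNFRSF1A in spiked tumours (-0.0575), and TNFRSF1B with array weights (0.0395), in spiked tumours (0.12), without tumours 13 and 15 (0.0330) and by Wilcoxon (0.0494). Single omissions gave -0.0813 to 0.211 for IL1R2 and -0.0329 to 0.0962 for IL6ST. Single omissions aside, S100A9 did not pass in 8 of 12 alternatives, LCN2 in 5 of 11 and TREM1 in 2 of 12. Over all probe sets limma called 1273 higher and 1285 lower, against 27 and 3 with no replicate block, 510 and 783 in spiked tumours, 0 in unspiked tumours (4989 unadjusted) and 1658 and 2203 without tumours 13 and 15. The causes were not tested.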

Other observations

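IL1A, IL1B and IL1RN are neighbours in the dog genome. In the RefSeq annotation of the assembly UU_Cfam_GSD_1.0 they bound a run of 8 consecutive protein-coding genes: IL1A, IL1B, IL37, IL36G, IL36B, IL36RN, IL1F10 and IL1RN. Of the genes between, the epithelial cytokine IL36B changed by -0.12 ± 0.13, its antagonist IL36RN by -0.02 ± 0.06 and IL1F10 by 0.04 ± 0.05 (SE, n = 21), and none passed (limma adjusted p = 0.686, 0.923 and 0.689). IL37 and IL36G were not analysed here. Neither did the more distant family members IL18, at a mean of 7.45 after and 7.39 before treatment, and IL33, at 8.36 after and 8.44 before (limma adjusted p = 0.897 and 0.774). IL18BP, which binds and blocks interleukin-18, had a mean of 9.34 after and 8.59 before treatment, and its change of 0.75 ± 0.27 did not pass (adjusted p = 0.103; 15 of 21 tumours higher).

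The genes whose change was most like that of IL1B over the 21 tumours were the epidermal protease KLK13 (r = 0.927), the cornified envelope gene IVL (0.926), the airway protease TMPRSS11D (0.905), LOC608379 (0.904), the amino acid transporter SLC6A14 (0.898) and LOC612173 (0.896). Without tumour 15 the r of these 6 genes with IL1B lay between 0.0640 and 0.474, so this likeness rests on a single tumour.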
